A study of Homo sapiens with 4 samples.

Results

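The 10 genes described here set the pace of the G1 phase of the cell cycle: the D cyclins CCND2 and CCND3, the E cyclins CCNE1 and CCNE2, the kinases CDK4, CDK6 and CDK2, and the CDK inhibitors CDKN1B, CDKN2C and CDKN2D. They were chosen with earlier results of these data known. Each of the 10 was taken by symbol and matched 1 Ensembl identifier among the 58735 in the deposited tables. The mean level of each was 1 FPKM or more, which was so for 12296 genes. FPKM is fragments per kilobase of exon scaled to library size, so it can be set side by side between genes. The length is that of all annotated exons of a gene together, so ratios between genes are approximate.

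Gene expression was measured by RNA sequencing in MOLM13, a human acute myeloid leukaemia cell line, to learn what lies behind a synergistic effect of SD70 and MI-503 in leukaemia driven by MLL::AF9. There were 4 libraries, 1 per treatment, each from cells taken after 12 h: DMSO (the vehicle), SD70, MI-503, and SD70 together with MI-503. All 4 come from the same fusion-bearing line. MI-503 is a compound made to stop menin from holding MLL proteins, and SD70 is known as a KDM4C inhibitor, KDM4C being an enzyme that removes methyl groups from histones. The sources used here give neither doses nor the number of cultures, so differences between these libraries may be technical. The p-values below take as their error the departure of the combination from the summed log2 effects of the agents, moderated over genes. They do not measure the spread between cultures.

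In G1, D cyclins bind CDK4 and CDK6, and the pair begins the phosphorylation of the retinoblastoma protein. That phosphorylation frees E2F transcription factors, which switch on E cyclins and other genes of S phase. Cyclin E with CDK2 then completes the step into S phase. INK4 proteins, among them those encoded by CDKN2C (p18) and CDKN2D (p19), bind CDK4 and CDK6 and keep D cyclins off, whereas CDKN1B (p27) binds the assembled cyclin E and CDK2 complex. CDK6 is known as a kinase that MLL-rearranged leukaemia cells depend on. In endocrine cells menin and MLL are known to keep CDKN1B and CDKN2C transcribed.

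The libraries held 15550915 recovered reads (DMSO), 14695753 (SD70), 15937390 (MI-503) and 15093444 (combination). No treatment had a replicate, so a difference between libraries has no replicate check, and each ratio carries a 95% Clopper-Pearson interval, exact but for counting error only. In RNA from a whole culture, fewer cells in a cell cycle phase and less RNA per cell cannot be told apart. Markers of myeloid leukaemia cells were expressed, 7 of 7 with a mean of at least 1 FPKM and a summed level of 2455 to 3484 FPKM. Of 16 markers of T, B, erythroid, epithelial and fibroblast cells, only KRT18 had a mean of at least 1 FPKM, and the erythroid markers were at 0 in all 4 libraries. The library composition moved with SD70: mitochondrial ribosomal RNA took 0.853% of the DMSO reads, 0.928% of those in MI-503, 1.43% in the combination and 1.5% in SD70. Its part in the results below was not tested.

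The promoters of 4 of the genes are shown because their RNA differed between libraries in different ways: CDK4 and CDK6, the partners of D cyclins, CCNE1, the cyclin of the next step, and CDKN2C, the inhibitor with the lowest ratio. Each window runs from 250 bases before a RefSeq start to 50 after it, on GRCh38.p14, written 5′ to 3′ on the strand of the gene. Capitals mark E-boxes (CACGTG, the site that MYC and other factors of its class bind) and GC boxes (GGGCGG, on either strand).
CDK4 (chr12:57752261-57752560, minus strand): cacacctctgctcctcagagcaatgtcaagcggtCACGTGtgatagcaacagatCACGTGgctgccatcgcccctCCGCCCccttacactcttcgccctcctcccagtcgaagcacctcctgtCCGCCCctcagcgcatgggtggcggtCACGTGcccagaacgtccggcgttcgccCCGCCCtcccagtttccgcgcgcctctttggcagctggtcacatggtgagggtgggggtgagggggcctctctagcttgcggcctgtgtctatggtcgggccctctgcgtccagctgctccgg
CDK6 (chr7:92836524-92836823, minus strand): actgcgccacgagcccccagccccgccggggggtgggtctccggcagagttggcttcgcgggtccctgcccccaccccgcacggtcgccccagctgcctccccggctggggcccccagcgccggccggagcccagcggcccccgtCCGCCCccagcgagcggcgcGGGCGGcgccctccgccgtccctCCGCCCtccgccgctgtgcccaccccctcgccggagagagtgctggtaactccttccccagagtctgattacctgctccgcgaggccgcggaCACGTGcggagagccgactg
CCNE1 (chr19:29811741-29812040, plus strand): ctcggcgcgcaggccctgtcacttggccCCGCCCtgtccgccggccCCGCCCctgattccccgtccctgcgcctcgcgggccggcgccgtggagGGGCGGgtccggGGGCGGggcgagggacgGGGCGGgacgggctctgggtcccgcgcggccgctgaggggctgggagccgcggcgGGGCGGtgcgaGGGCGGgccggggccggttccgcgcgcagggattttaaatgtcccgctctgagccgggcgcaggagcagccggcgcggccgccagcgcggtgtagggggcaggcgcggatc
CDKN2C (chr1:50968456-50968755, plus strand): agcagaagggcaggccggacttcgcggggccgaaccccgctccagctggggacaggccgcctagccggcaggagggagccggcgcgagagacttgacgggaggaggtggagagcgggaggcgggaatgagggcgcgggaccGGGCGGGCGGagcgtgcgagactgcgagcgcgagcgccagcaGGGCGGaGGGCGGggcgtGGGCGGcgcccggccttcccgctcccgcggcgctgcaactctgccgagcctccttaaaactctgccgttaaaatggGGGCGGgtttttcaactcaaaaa
The CDK4 window held 3 E-boxes and 3 GC boxes, and the CDK6 window held 1 E-box, near its downstream end, and 3 GC boxes. The CCNE1 window held 7 GC boxes and the CDKN2C window 6, with no E-box in either. The other CDKN2C windows, upstream and downstream of the one shown, held 1 E-box each, and the other CDK6 window held no E-box and no GC box. RefSeq windows were found for 7 of the 10 genes, 12 windows in all, since CDK6, CCND3 and CDKN2C have several starts. Of these 12, 4 held an E-box and 9 a GC box, and among all 35116 RefSeq windows 7.26% and 45.0% did. None of the 12 held an E2F site spelled TTTCCCGC, TTTGGCGC or TTTCGCGC on either strand, which 2.74% of all windows held, nor a STAT site spelled TTCNNNGAA, which 7.66% held. A match is a string of letters and no evidence of binding, and looser spellings were not searched.

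SD70 alone was compared with DMSO to ask what it did to this set. Of the 10 genes, 6 were at least 1.5-fold lower in SD70 on the log2(FPKM + 1) scale (CCNE1, CCNE2, CDK2, CDK4, CDK6 and CDKN2C) and 0 were higher, while 18.8% of all 12296 genes were lower and 14.6% higher by that rule. Because the set was chosen with earlier results of these data known, setting its count beside these shares is no test. CDKN1A, a CDK inhibitor outside the set, was 1.52-fold higher in SD70. The median log2 difference over the 10 was -0.76, against -0.07 over all genes. At least 2-fold lower were 4 of the 10 (CCNE1, CCNE2, CDK6 and CDKN2C), as were 6.37% of all genes. CDKN2C had the lowest ratio, followed by CCNE1, CCNE2 and CDK6, and CDKN2D was the only one of the 10 with a level above DMSO. The count was 5 under either scaling to a common total or with a pseudocount of 5, where CDK4 no longer passed (log2 difference -0.52, -0.52 and -0.53), and 7 with a pseudocount of 0.1. Summed over the 10 genes, the level was 280 FPKM in DMSO, 157 in SD70, 238 in MI-503 and 160 in the combination.

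**Figure D1:**
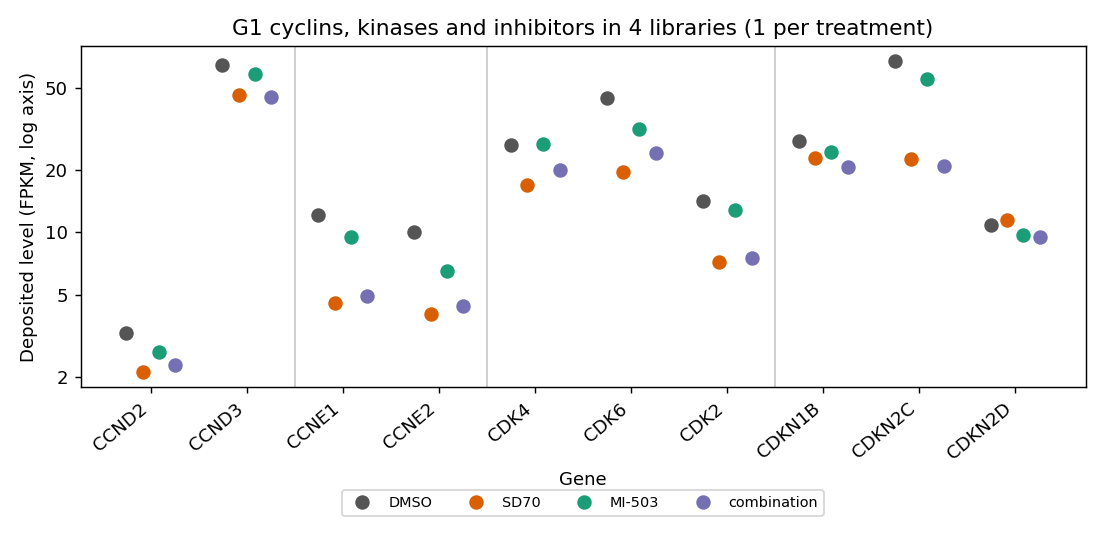
Deposited level of each gene (FPKM, log axis) in the DMSO, SD70, MI-503 and combination libraries, with 1 point per library and no error bar because no treatment was replicated. The points for CDKN2C run from 21.0 to 67.0 FPKM, with both SD70 libraries low, and those for CDKN2D from 9.51 to 11.4 FPKM.

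A fit of all 4 libraries with a term for each agent gave the tests. It used limma on log2(FPKM + 1), moderated along the mean-variance trend, and sets the 2 libraries with an agent against the 2 without it. For SD70, 5 of the 10 genes fell at an adjusted p under 0.05 (CCNE1, CCNE2, CDK2, CDK4 and CDKN2C) and 0 rose, against 14.7% of all genes falling and 7.86% rising. The fit has 1 residual degree of freedom, and all 5 calls were lost, with 0 genes called in the whole table, when the trend or the filter on low values was left out (smallest adjusted p 0.0514 and 0.277, with 4769 and 5003 genes at an unadjusted p under 0.05). After scaling to a common FPKM total or read total, 3 calls were left, CCNE1, CDK2 and CDKN2C, and the share of higher genes among all those past 1.5-fold went from 43.6% to 53.7% and 54.2%.

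The D cyclins are the sensors of growth signals in G1. CCND3, a main D cyclin of blood cells, stood at 64.1 FPKM in DMSO, 45.9 in SD70, 58.4 in MI-503 and 45.1 in the combination. Both libraries with SD70 lay below both without it, at a ratio of 0.716 for SD70 over DMSO (95% interval 0.687 to 0.745). The limma change was -0.42 ± 0.11 (SE) and did not pass (adjusted p = 0.0557), though it did with a filter at a mean of 5 FPKM and with limma-voom. CCND2, which responds to cytokine signals, was the lowest of the 10 in each library, at 3.27, 2.12, 2.65 and 2.29 FPKM in the same order. Its ratio for SD70 over DMSO was 0.648 (0.547 to 0.767), and its limma adjusted p was 0.227. CCND3 exceeded CCND2 by between 19.6-fold and 22.0-fold in every library. The remaining D cyclin, CCND1, had 1.07, 0.254, 0.955 and 0.402 FPKM in that order and lay under the minimum of 1 FPKM.

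The E cyclins activate CDK2 at the end of G1 and are themselves E2F targets. CCNE1 stood at 12.1 FPKM in DMSO, 4.56 in SD70, 9.52 in MI-503 and 4.92 in the combination, from 466, 180, 379 and 194 reads. Both SD70 libraries were at well under the level of the other pair, and SD70 over DMSO was 0.377 (95% interval 0.316 to 0.449). CCNE1 fell with SD70 in limma (log2 change -1.03 ± 0.15 SE, adjusted p = 0.0224). CCNE2, the related cyclin, showed 10.04 FPKM with DMSO, 4.03 with SD70, 6.51 with MI-503 and 4.41 with the combination. Its ratio for SD70 over DMSO was 0.401 (0.347 to 0.462), and the limma change of -0.80 ± 0.19 (SE) passed (adjusted p = 0.0397). In MI-503 alone CCNE2 had the lowest ratio to DMSO of the 10, 0.649 (0.574 to 0.732). Its exons share 1629 bases, 37.0% of their length, with INTS8 on the opposite strand, a gene at 23.8 to 28.2 FPKM. Whether counting used strand is not given in the sources used here, so reads of the shared stretch cannot be assigned to either gene. The ratio of CCNE1 to CCNE2 was 1.20 in DMSO, 1.13 in SD70, 1.46 in MI-503 and 1.12 in the combination.

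Among the kinases, CDK6 was the most abundant in each library and had the lowest ratio to DMSO with SD70 alone and with MI-503 alone. CDK6 (ENSG00000105810, GENCODE 29 on GRCh38, chromosome 7, 92604921 to 92836594, minus strand) stood at 44.5 FPKM in DMSO, 19.5 in SD70, 31.7 in MI-503 and 24.2 in the combination. DMSO was the highest and SD70 alone the lowest, with the combination between SD70 and MI-503. The ratio of SD70 to DMSO was 0.439 (0.422 to 0.456), from 3705 and 8247 reads, and that of MI-503 to DMSO was 0.712 (0.689 to 0.736). CDK6 did not pass for SD70 in limma (log2 change -0.76 ± 0.21 SE, adjusted p = 0.0537), and with limma-voom or a filter at 5 FPKM it did. The antisense gene AC002454.1, which shares 81 exon bases with CDK6, had 42 reads in DMSO, 4 in SD70, 10 in MI-503 and 7 in the combination.

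CDK4, the other partner of D cyclins, was at 26.6 FPKM in DMSO, 16.9 in SD70, 26.8 in MI-503 and 20.1 when they were combined. It was level between DMSO and MI-503, with a ratio of 1.01 (0.934 to 1.09), and lower in both SD70 libraries. The limma change with SD70 was -0.51 ± 0.13 (SE; adjusted p = 0.0456), a call lost also with a pseudocount of 0.1. CDK4 shares 1369 exon bases, 43.2% of its exon length, with TSPAN31 on the opposite strand, which was at 2.47 to 3.55 FPKM. CDK6 exceeded CDK4 by 1.68-fold in DMSO and by 1.16-fold in SD70, 1.18-fold in MI-503 and 1.20-fold in the combination. CDK4 and CDK6 stood nearer to each other in every library with an agent than in DMSO, and these comparisons share the single DMSO library.

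CDK2, the partner of E cyclins, had 14.2 FPKM in DMSO, 7.15 in SD70, 12.8 in MI-503 and 7.49 in the combination. The SD70 pair lay together below the other pair, at a ratio of 0.504 (0.447 to 0.566) for SD70 over DMSO. CDK2 fell with SD70 in limma (log2 change -0.80 ± 0.13 SE, adjusted p = 0.0229). E cyclins together stood at 1.56 times CDK2 in DMSO and at 1.20 to 1.25 times in the other libraries.

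**Figure D2:**
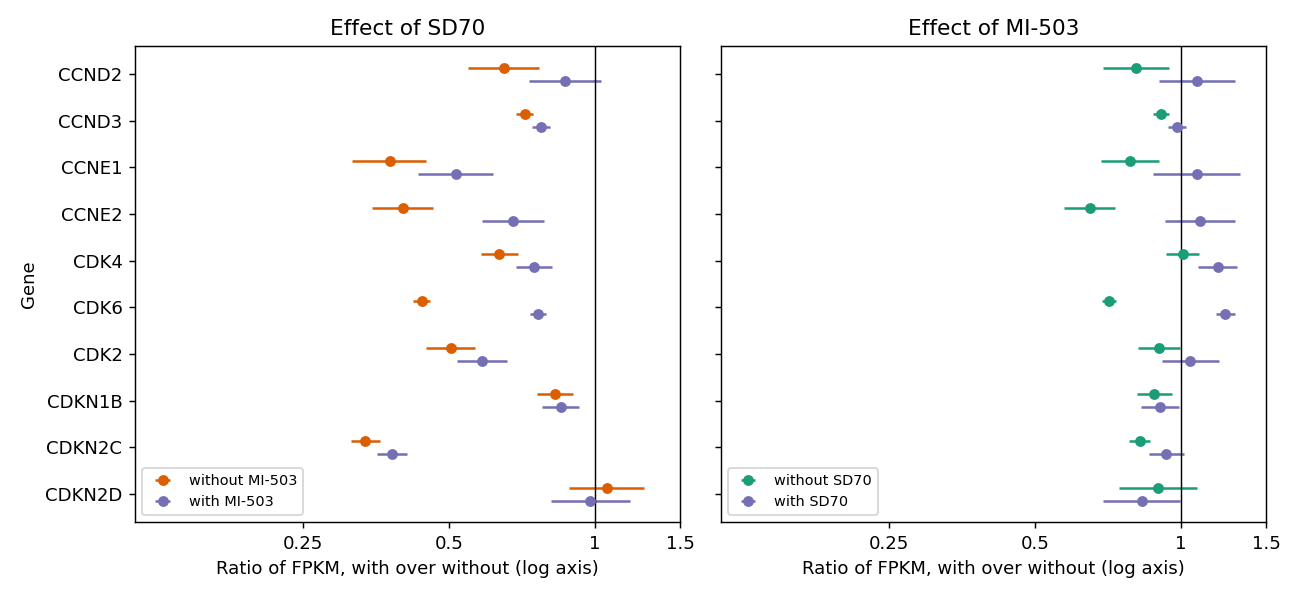
Ratio of FPKM (log axis) for each gene with SD70 over without it (left: SD70 over DMSO, and the combination over MI-503) and with MI-503 over without it (right: MI-503 over DMSO, and the combination over SD70). Bars are 95% counting intervals between 2 libraries; CDKN2C lies farthest left in the left panel at 0.336 and 0.381, and CDK6 lies at 0.712 and 1.24 on either side of 1 in the right panel.

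With SD70 the inhibitors lay between -1.53 and 0.07 in their log2 difference from DMSO. CDKN2C (ENSG00000123080, chromosome 1, 50960745 to 50974633, plus strand), an INK4 inhibitor of CDK4 and CDK6, was the most abundant of the 10 genes in DMSO at 67.0 FPKM. It stood at 22.5 FPKM in SD70, 55.2 in MI-503 and 21.0 in the combination, with both SD70 libraries well below the other pair. SD70 over DMSO was 0.336 (0.314 to 0.359), lower than for all but 1.17% of the 12296 genes on the log2 scale. By limma CDKN2C fell by 1.44 ± 0.12 (log2, SE) with SD70, at an adjusted p of 0.0224. CDKN2D, the related INK4 inhibitor, was at 10.8 FPKM in DMSO, 11.4 in SD70, 9.72 in MI-503 and 9.51 in the combination. Its libraries lay close together, and the ratio of SD70 to DMSO was 1.06 (0.885 to 1.26), with a limma change of 0.02 ± 0.12 (SE; adjusted p = 0.909). CDKN2C exceeded CDKN2D by 6.18-fold in DMSO and 5.68-fold in MI-503, but by 1.97-fold in SD70 and 2.21-fold in the combination.

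CDKN1B, the inhibitor of cyclin E and CDK2, stood at 27.6 FPKM in DMSO, 22.9 in SD70, 24.4 in MI-503 and 20.7 in the combination. DMSO was the highest and the combination the lowest, at a ratio of 0.749 (0.686 to 0.818). The limma change with SD70 was -0.25 ± 0.12 (SE; adjusted p = 0.185). CDKN1B over CDK2 was 1.95 in DMSO and 1.90 in MI-503, against 3.19 in SD70 and 2.76 in the combination. The INK4 pair summed to 1.09 times CDK4 plus CDK6 in DMSO, 0.933 in SD70, 1.11 in MI-503 and 0.690 in the combination. Levels of RNA are compared here, and amounts of protein were not measured.

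MI-503 alone was compared with DMSO to ask what menin inhibition did to the set. On the log2(FPKM + 1) scale none of the 10 genes was 1.5-fold higher or lower, and 4.37% and 2.55% of all genes were. Without a pseudocount CCNE2 was 1.54-fold lower, at a ratio of 0.649 (0.574 to 0.732), and with a pseudocount of 0.1 it passed the limit. The median log2 difference was -0.20 over the 10 and -0.03 over all genes. The interval of the ratio lay below 1 for 8 genes, among them CCND3 at 0.910 (0.876 to 0.945) and CDKN2C at 0.824 (0.783 to 0.866), as it did for 25.1% of all genes. Since these intervals narrow with the reads of a gene, that share depends on depth too. It held 1 for CDK4 and CDKN2D. In limma 0 of the 10 and 0 of all genes passed for MI-503, 401 genes had an unadjusted p under 0.05, and limma-voom called 8 genes, none of them in the set. CDKN1B and CDKN2C stood at 0.882 (0.811 to 0.959) and 0.824 of DMSO, while MEN1, the gene of menin, was at 20.3 FPKM in DMSO, 13.1 in SD70, 22.6 in MI-503 and 15.7 in the combination.

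The combination was compared with DMSO and with each agent. Against DMSO, 5 of the 10 genes were at least 1.5-fold lower (CCNE1, CCNE2, CDK2, CDK6 and CDKN2C) and 0 higher, where 14.9% of all genes were lower and 13% higher. At 2-fold 3 were lower (CCNE1, CCNE2 and CDKN2C), beside 3.76% of all genes. These comparisons share the DMSO library with those above. CDK4, which passed 1.5-fold in SD70, stood at 0.756 of DMSO (0.695 to 0.822) in the combination. Against MI-503, 3 genes were lower (CCNE1, CDK2 and CDKN2C) and 0 higher, beside 9.21% of all genes lower and 7.59% higher. At 2-fold 1 was lower, beside 1.64% of all genes, and that gene, CDKN2C, had the lowest ratio again, 0.381 (0.355 to 0.409). In that comparison the share of higher genes among all those past 1.5-fold was 45.2%, and 57.7% and 55.0% with the same FPKM and read totals. Against SD70, 0 of the 10 passed, as 2.53% of all genes did in the higher and 2.23% in the lower direction. CDK6 was higher in the combination than in SD70, 1.24-fold (1.18 to 1.29), and so was CDK4, 1.19-fold (1.09 to 1.31). CDKN1B at 0.906 (0.827 to 0.992) and CDKN2D at 0.831 (0.692 to 0.997) were lower, and for the other 6 genes the interval held 1. These intervals are at the deposited scaling, and which of them hold 1 depends on it. With the same FPKM total the log2 difference went from -0.09 to -0.14 for CDKN2C, from -0.02 to -0.07 for CCND3 and from 0.29 to 0.24 for CDK6. Among all genes the interval lay above 1 for 19.3% and below 1 for 14.1%.

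The series asks about synergy, so the combination was set against the product of the ratios of each agent to DMSO. On the log2(FPKM + 1) scale the combination stood above that product for 9 of the 10 genes, all but CDKN2D, and for 55% of all genes. With the same read total it was 8 of the 10, as CDKN1B went from 0.04 to -0.01. The median departure was 0.21 over the 10 and 0.04 over all genes. CDK6 and CCNE2 departed by at least 1.5-fold upward, and 0 genes downward, beside 5.73% of all genes upward and 6.77% downward. At 2-fold 0 departed upward, beside 1.85% of all genes. The product for CDK6 was 13.9 FPKM and the measured level 24.2, a ratio of 1.74 (Wald counting interval 1.64 to 1.83). For CCNE2 the product was 2.61 FPKM and the level 4.41, a ratio of 1.69 (1.38 to 2.07). CDKN2C departed by 1.13 (1.03 to 1.25), and for CDKN1B, CDKN2D and CDK2 the interval held 1. The departure has no error other than counting, and it uses the same 4 libraries as the ratios above.

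**Figure D3:**
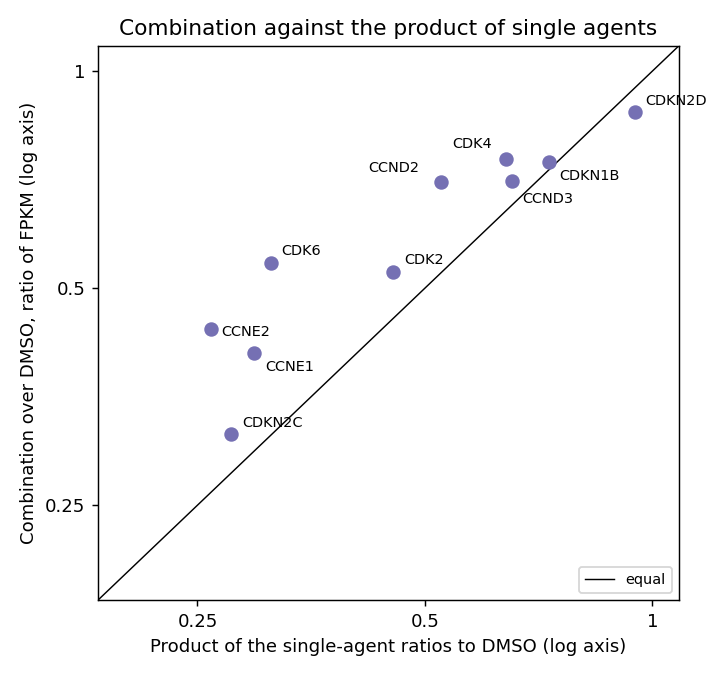
Ratio of the combination to DMSO (vertical, log axis) against the product of the ratios of SD70 and MI-503 to DMSO (horizontal, log axis), 1 point per gene, with a line where they are equal. CDK6 lies above the line at 0.543 against 0.312, and CDKN2D lies just below it at 0.878 against 0.948.

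The other genes that act on this step were read from 7 lists with 64 genes, of which 58 had a mean of at least 1 FPKM. With SD70, 18 of the 58 (31.0%) fell in limma and 6 rose, beside the 14.7% and 7.86% of all genes given above. The counts of each list below are to be read against those shares, and in a list of 5 genes a single call lies near them. Of the remaining CDK inhibitors, only CDKN1A (p21) was above the minimum. It stood at 58.6 FPKM in DMSO, 88.9 in SD70, 48.5 in MI-503 and 72.6 in the combination, with both SD70 libraries above the other pair, and it rose (adjusted p = 0.0277). The INK4 genes CDKN2A and CDKN2B had 0 reads in each library, where 3 reads would have stood for at most 0.0459 and 0.0489 FPKM. CDKN1C had 1 read in DMSO, 18 in SD70, 2 in MI-503 and 13 in the combination.

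Of 5 genes for CDK activation, 1 fell with SD70 in limma: CDC25A, the phosphatase that activates CDK2, at 16.2, 4.35, 12.2 and 5.83 FPKM (adjusted p = 0.0226). Its log2 fold in SD70 was -1.69, below that of each of the 10 genes. CDK7, CCNH and MNAT1, which form the CDK-activating kinase, and CDC37, a chaperone partner of kinases, had log2 differences between -0.39 and -0.18. Among 11 genes of the ubiquitin ligases that act on G1 cyclins and inhibitors, 5 fell (SKP2, SKP1, CUL1, DDB1 and DTL) and 0 rose. SKP2, which marks CDKN1B protein for destruction, was at 21.3 FPKM in DMSO, 8.24 in SD70, 18.3 in MI-503 and 9.72 in the combination (limma adjusted p = 0.0224). DTL, a receptor of a CUL4 ligase, showed 18.8, 6.42, 13.7 and 7.51 FPKM in that order.

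In the list of RB and E2F genes 5 of 10 fell with SD70 (RBL1, E2F1, E2F2, E2F4 and TFDP1) and 0 rose. RB1, the retinoblastoma gene, stood at 32.9, 27.5, 27.2 and 26.3 FPKM, and its ratio of SD70 to DMSO was 0.833. E2F1, an activator of E cyclin genes, had 22.0 FPKM with DMSO, 9.06 with SD70, 17.7 with MI-503 and 10.7 with the combination. All 5 cyclin and kinase genes of S, G2 and M phase fell: CCNA2, CCNB1, CCNB2, CCNF and CDK1. CCNA2, which takes over CDK2 from E cyclins in S phase, went from 78.4 FPKM in DMSO to 32.1 in SD70. The part of these S, G2 and M phase genes in the values of the G1 set was not tested.

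Among 8 measured genes upstream of the set, MYC and MEN1 fell with SD70, and FOXO3 and STAT5A rose. MYC, which drives CDK4 transcription, was at 181 FPKM in DMSO, 83.2 in SD70, 169 in MI-503 and 130 when they were combined, so that its order over the libraries was DMSO, MI-503, combination and SD70. Of the 10 genes, 5 had that order as well: CCND2, CCNE1, CCNE2, CDK2 and CDK6. The share of all genes with that order was not counted, so the count of 5 cannot be read as a trait of the set. For CCND2, CCNE1, CCNE2 and CDK2 the combination and SD70 lay within counting error of each other. CDK4 did not have the order, at 26.8 FPKM in MI-503 and 26.6 in DMSO, and the part of MYC in these levels was not tested. FOXO3, known as an activator of CDKN1B, stood at 11.4, 19.3, 11.8 and 17.4 FPKM (limma adjusted p = 0.0307). CDKN1B was at 0.827 of DMSO in SD70 (0.759 to 0.901), and its limma change did not pass (adjusted p = 0.185). The part of FOXO3 in the level of CDKN1B was not tested. In the list of transcriptional and other cyclins and kinases, of 18 measured genes 3 rose with SD70 (CCNG1, CCNG2 and CCNI) and 0 fell, and their median log2 difference was 0.01. CCNG2, an atypical cyclin of cells that leave the cycle, was at 3.0 FPKM in DMSO, 7.91 in SD70, 4.06 in MI-503 and 5.80 in the combination.

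**Figure D4:**
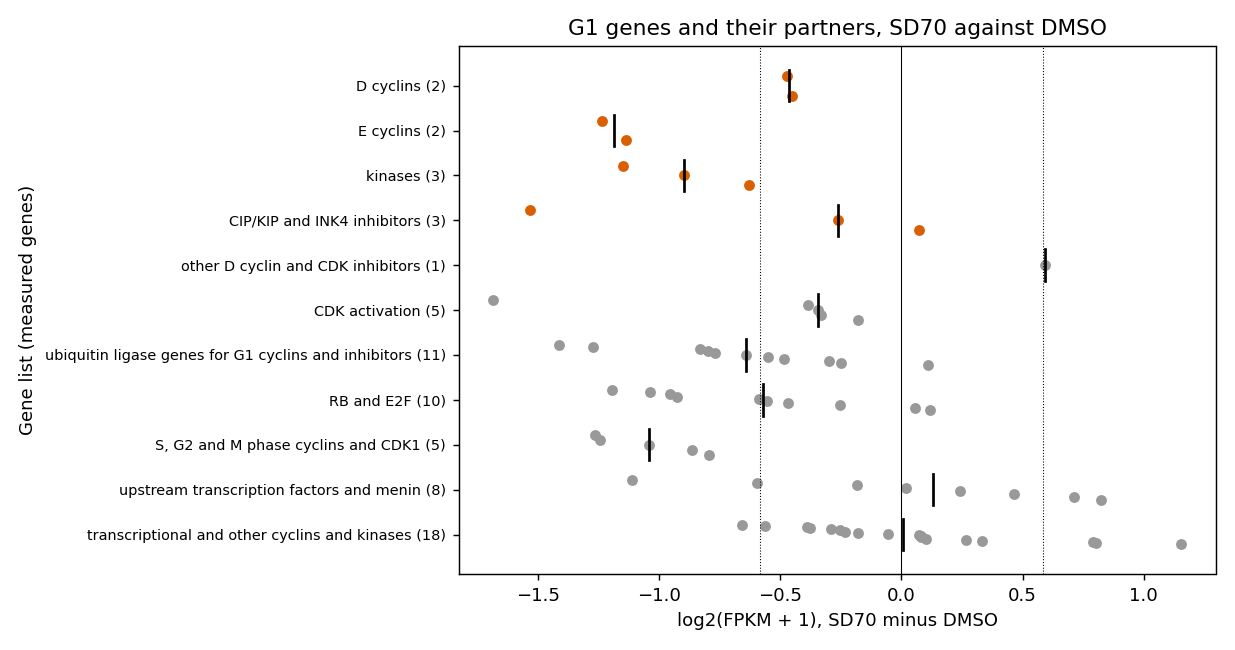
Difference in log2(FPKM + 1) between SD70 and DMSO for each measured gene in the 4 groups of the G1 set (orange) and the 7 lists of other genes (grey), with a bar at each list's median and dotted lines at 1.5-fold. The 5 genes of S, G2 and M phase lie between -1.26 and -0.80, and the 18 other cyclins and kinases lie on both sides of 0.

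For the 4 genes with the largest folds, the nearest patterns were sought among 6661 protein-coding genes averaging 5 FPKM or more, by the Euclidean distance of the 3 log2 folds against DMSO. CDKN2C lay nearest to RFC3 (distance 0.08), PSMD1 and TRMT10C, and CCNE1 to TUBG1 (0.05), SHCBP1 and TIMM10. The nearest to CDK6 were PROK2 (0.05), NUP88 and MT1E, and to CCNE2 they were TRIAP1 (0.08), HIGD1A and MBNL1. These distances rest on 4 libraries and share the DMSO library.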

How the data were processed

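Total RNA was extracted with Trizol and made into Illumina libraries, per the labels' protocols. The submitters' processing notes list BWA, Bowtie and hg38 with no role and no version for either aligner, and which annotation and read counter served is not given in the sources used here. The authors deposited 1 table per library, read here as FPKM from the values, since per the file headers no unit is named. Each value times its GENCODE 29 union-exon length gave whole reads, within 0.01 of a read, for 100% of values above 0. A read in 1 kb was worth 0.0641 to 0.0662 FPKM.

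The members and lists were chosen with earlier results of these data known. Folds used log2(FPKM + 1), which understates the change of low genes, and a limit of 1.5-fold. Genes averaging 1 FPKM or more were kept. Ratios have exact conditional binomial intervals, which cover counting error only, as PCR reads are not independent molecules. The secondary fit (limma 3.58.1 in R 4.3.3, a term per agent, 2-sided, Benjamini-Hochberg over 12296 genes) takes the departure from additivity as its error, and was repeated with other pseudocounts, filters, scalings and limma-voom at the deposited scaling. It was also run on simulated libraries with effects of SD70 only and no departure, which cannot show how it does on genes that depart. Named genes were the 10 members, 7 fixed genes, listed genes past 1.5-fold the same way in both SD70 comparisons or in MI-503 against DMSO, and the 3 nearest patterns of the 4 members with the largest folds; other listed genes passing limma were named after their values were seen. Promoters are RefSeq windows. With 1 library per group, no pair of libraries was tested.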

Additional observations from a re-analysis of the deposited data

Results flagged for a closer look

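MI-503 went with opposite differences in CDK6 depending on SD70. CDK6 was lower with MI-503 alone, at 0.712 of DMSO (95% counting interval 0.689 to 0.736), and higher when MI-503 was added to SD70, at 1.24 (1.18 to 1.29), so that the latter ratio was 1.74 times the former. CDC25A showed the same pattern, 0.756 and 1.34, a quotient of 1.77, and so did DTL at 0.731 and 1.17, a quotient of 1.60. For SKP2 the ratios were 0.859 and 1.18 (quotient 1.37), for E2F1 0.803 and 1.19 (quotient 1.48), and for MYC 0.938 and 1.56 (quotient 1.67). These 6 were picked out, among the genes named by the rule given above, because both counting intervals lay on opposite sides of 1 with and without SD70. That choice used the deposited scaling only, where the FPKM total was 304320 in the combination and 293684 in SD70. With SD70 the lower limits of E2F1 (1.026) and DTL (1.035) lay near 1, so their place depends on scaling. Other listed genes had ratios on opposite sides too, among them CUL4A (0.856 and 1.15), TFDP1 (0.917 and 1.17), CKS1B (0.805 and 1.17) and CCNT1 (0.916 and 1.21). So did the members CCND2 (0.809 and 1.08), CCNE1 (0.787 and 1.08), CCNE2 (0.649 and 1.10) and CDK2 (0.902 and 1.05). For these members the interval with SD70 held 1. Of all genes, 25.1% had the interval below 1 without SD70 and 19.3% had it above 1 with SD70. The share with both was not counted. The difference was not tested, as each value compares 2 libraries.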

How the results depend on the processing

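No paired analysis was possible because each treatment had 1 library with no replicate number in the labels, and no library could be left out of a pair. No called member fold changed sign under another pseudocount or scaling, and 26 folds moved beyond their counting interval (6 with the same FPKM total, 7 with the same read total, 13 with a pseudocount of 5). The count of genes past 1.5-fold in MI-503 against DMSO went from 0 to 1 with a pseudocount of 0.1. A limit of 2-fold gave 3 genes for the combination against DMSO, 1 for the combination against MI-503 and 0 departures, and a pseudocount of 5 gave 1 gene for the combination against MI-503 and 1 departure. The summed level was 56.0% of DMSO in SD70 and 57.0% in the combination. Scaling to the same FPKM total gave 60.4% and 59.3%, and to the same read total 60.7% and 60.1%. For the SD70 term limma called 5 members, 0 with no trend, 0 with no filter, and 3 under either scaling. The cause was not tested. Limma-voom and a filter at 5 FPKM called 7 members each; CCND2 lay under that filter. Over all genes limma called 2768 for SD70, between 0 and 4630 in the alternatives. CCND2, at 235 to 354 reads, CCNE1, at 180 to 466, and CDKN2D, at 221 to 266, had the fewest reads and the widest intervals.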
